A study of Homo sapiens with 18 samples.

Results

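The genes described here are 36 named members of the glycolytic pathway and of the transcriptional response to low oxygen, taken by symbol from a table of 37550 gene rows. All 36 symbols had exactly 1 row. All 36 also passed the filter on low values, which 17033 rows passed (at least 1 TPM, a length-corrected share of the library, in at least 2 of 18 libraries). They comprise 2 glucose carriers, 8 genes of upper glycolysis and its regulators, 9 of lower glycolysis, 6 that handle lactate and pyruvate, 4 of oxygen sensing and 7 targets of the hypoxia response. Members were taken by gene name, from a list drawn up with earlier results of these data known.

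Poly-A RNA was sequenced from H1, an established line of human pluripotent stem cells, labelled wild type, in 9 groups of 2 biological replicates. Undifferentiated cells (hPSC, day 0) were kept in mTeSR Plus. All other groups passed through a definitive ectoderm day (day 1) with A8301 at 1 µM, Trametinib at 250 nM, C59 at 1 µM and LDN193189 at 100 nM in CDM2 medium. Anterior neural ectoderm (aNE, day 2) then received A8301 at 1 µM, LDN193189 at 100 nM, C59 at 1 µM and Thiazovivin at 1 µM. Posterior neural ectoderm (pNE, day 2) received A8301 at 1 µM, LDN193189 at 100 nM, TTNPB at 50 nM, FGF2 at 20 ng/mL, XAV939 at 1 µM and Thiazovivin at 1 µM. On day 4 there were 6 groups, each ectoderm having been moved into forebrain (T), midbrain (M) or hindbrain (H) medium, and they are called aNE_T, aNE_M, aNE_H, pNE_T, pNE_M and pNE_H here. The forebrain medium of day 3 held XAV939 at 1 µM, LDN193189 at 100 nM and FGF2 at 20 ng/mL, and the other media compositions are not used here. Cells were plated at 37500 per cm2 for aNE and pNE, at 75000 per cm2 for the aNE-derived day 4 groups and at 150000 per cm2 for the pNE-derived ones. Origin and plating density therefore cannot be told apart on day 4, and neither can day and density between day 2 and day 4. Medium and added compounds changed together with the step out of hPSC, so their parts in differences from hPSC cannot be told apart from it. All groups derive from this 1 line, and oxygen tension was not a variable of the design.

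Glycolysis turns glucose into pyruvate, and lactate dehydrogenase turns pyruvate into lactate, which leaves the cell through monocarboxylate carriers. Pluripotent stem cells are known for running this route at a high rate even with oxygen present. When oxygen is scarce, the prolyl hydroxylases encoded by the EGLN genes stop marking HIF alpha subunits for destruction, and HIF then raises the transcription of many glycolytic enzymes, glucose carriers and secreted factors. EGLN3 is itself a target of HIF, so its transcript is part of a feedback loop.

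Markers matched some labels better than others. The summed level of POU5F1, NANOG, TDGF1, DPPA4 and L1TD1 was 4436 TPM in hPSC and 75.6 to 484 TPM in the other 8 groups. The summed level of 5 neural ectoderm genes was 628 TPM in aNE, 360 in pNE, 825 in aNE_T and 506 in pNE_T, but 188 to 251 TPM in the midbrain and hindbrain medium groups, beside 210 in hPSC. The hPSC sum was mostly SOX2, at 191 TPM, with CDH2 at 18.8 TPM. In the midbrain and hindbrain medium groups SOX2 was lower, at 71.8 to 115 TPM, and CDH2 higher, at 85.3 to 175 TPM. The sum of 5 anterior genes was 1092 TPM in aNE and 788 in aNE_T, and lower in aNE_M and aNE_H, at 172 and 142 TPM, beside 176 in pNE. The sum of 5 posterior genes was 497 to 932 TPM in pNE and its day 4 groups, 216 in aNE_M, 104 in aNE_H and 31.4 in aNE_T. Among markers of other lineages, 6 mesendoderm and endoderm genes summed to 107 TPM in aNE_M and 0.416 to 15.8 TPM elsewhere. In aNE_M, MIXL1 was at 86.5 and EOMES at 16.5 TPM. GATA6 and FOXA2 of that list were highest in pNE_T, at 4.35 and 5.18 TPM. Neural crest genes (4) summed to 37.3 TPM in hPSC, 22.6 in pNE_M, 15.9 in pNE_H and 1.02 to 10.7 elsewhere. These sums were mostly FOXD3 in hPSC (33.5 TPM) and pNE_M (15.9 TPM), and mostly SOX10 in pNE_H (14.5 TPM). Mesoderm genes (4) summed to 6.14 TPM in pNE_M and 0.436 to 3.24 elsewhere. In pNE_M this was mostly HAND1, at 5.35 TPM, with TBX6, MESP1 and MSGN1 each below 1 TPM. Surface ectoderm genes (4), mostly KRT8 and KRT18, summed to between 583 (aNE_T) and 2081 TPM (pNE_M). The summed cycling genes ranged from 550.4 (aNE) to 694 TPM (pNE_M) and the stress genes, mostly HSPA5, from 675 (aNE) to 864 TPM (pNE). Of the stress genes, TRIB3 ranged from 4.80 (aNE_M) to 49.0 TPM (pNE) and DDIT3 from 7.28 (hPSC) to 47.0 TPM (pNE). Mitochondrially encoded transcripts made up 0.960% and 1.23% of the hPSC libraries and 1.53% to 3.74% of the others, and their part in the differences from hPSC was not tested. In bulk RNA a lower level can mean fewer cells that express a gene or less RNA of it per cell, and these cannot be told apart.

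The promoters of the members called most often are shown first, because HIF recognises a short core motif, ACGTG or GCGTG. They are the 5 members that were called in at least 4 comparisons and have a single listed start site. Each sequence is the 250 bases before the RefSeq start site in GRCh38.p14, 5′ to 3′ on the gene's strand, with every match to the core motif on either strand in capitals.
ADM, chr11:10304823-10305072, plus strand: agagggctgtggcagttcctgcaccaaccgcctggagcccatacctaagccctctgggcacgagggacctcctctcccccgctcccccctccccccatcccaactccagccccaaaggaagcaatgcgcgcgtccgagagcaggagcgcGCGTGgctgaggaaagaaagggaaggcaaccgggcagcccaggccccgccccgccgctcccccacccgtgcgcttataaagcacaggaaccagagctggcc
EGLN3, chr14:33951075-33951324, minus strand: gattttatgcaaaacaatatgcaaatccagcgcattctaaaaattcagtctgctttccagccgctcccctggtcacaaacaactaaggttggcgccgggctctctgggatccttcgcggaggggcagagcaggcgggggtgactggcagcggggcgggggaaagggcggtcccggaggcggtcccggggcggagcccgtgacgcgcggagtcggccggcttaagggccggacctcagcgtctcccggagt
SLC2A1, chr1:42958869-42959118, minus strand: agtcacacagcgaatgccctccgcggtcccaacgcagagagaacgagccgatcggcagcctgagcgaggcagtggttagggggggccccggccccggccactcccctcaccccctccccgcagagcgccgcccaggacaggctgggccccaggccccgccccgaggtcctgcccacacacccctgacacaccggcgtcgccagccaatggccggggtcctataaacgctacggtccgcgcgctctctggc
ALDOC, chr17:28576896-28577145, minus strand: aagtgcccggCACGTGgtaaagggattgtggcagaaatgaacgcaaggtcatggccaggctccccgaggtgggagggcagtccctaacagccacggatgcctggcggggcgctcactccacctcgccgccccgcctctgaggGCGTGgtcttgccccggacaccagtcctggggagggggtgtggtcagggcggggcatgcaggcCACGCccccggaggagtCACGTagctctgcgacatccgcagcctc
ENO2, chr12:6914330-6914579, plus strand: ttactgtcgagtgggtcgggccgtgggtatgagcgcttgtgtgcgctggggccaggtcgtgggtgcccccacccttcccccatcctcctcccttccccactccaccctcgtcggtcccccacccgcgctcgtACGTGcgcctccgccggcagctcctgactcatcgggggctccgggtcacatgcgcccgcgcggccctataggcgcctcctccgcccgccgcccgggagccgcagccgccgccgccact

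ALDOC held 5 matches, of which 2 overlap in CACGTG, a palindrome that is also the E-box read by MYC and related factors. ADM and ENO2 each held 1 match, starting 101 and 118 bases before the start site. No match fell in these windows of EGLN3 or SLC2A1, which says only that these letters are not in the 250 bases. RefSeq promoters were matched for 32 of 36 members, with 59 listed start sites. HK1 and PFKM each had 7 of these, some with overlapping windows. The shares below count start sites and not genes, so genes with many start sites weigh more in them. At least 1 match was present in 59.3% of these 59 member promoters, in 53.4% of the promoters of tested genes and in 43.2% of all 35116 promoters. For ACGTG alone the shares were 39.0%, 21.5% and 18.5%. Median GC content differed in the same order, at 68.4%, 64.0% and 58.0%, and its part in the shares was not tested. A match is a description of the letters and not of a bound site.

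Of the 36 members, 21 were called in at least 1 of 16 comparisons between groups and 15 in none, against 36.8% of all genes tested that were called at least once. A gene was called when its limma adjusted p was below 0.05 over all 17033 genes and its difference was at least 1 on the log2(TPM + 1) scale, on which all differences below are given. That scale understates changes of genes near 1 TPM. In every call between groups that is named below, the libraries of the groups did not overlap. That is no separate support, because a call already needs a large difference beside a small spread. Undifferentiated cells stood apart as a group. In 16 of 36 members both hPSC libraries were above all 16 other libraries, a pattern found in 13.4% of all tested genes, and in none were both hPSC libraries below all others, a pattern found in 13.5%. The 16 were HK1, HK2, GPI, PFKP, ALDOC, TPI1, GAPDH, PGK1, PGAM1, LDHA, LDHB, SLC16A1, SLC16A3, PDK1, PDK3 and BNIP3. On group means hPSC was the highest of 9 groups for 18 members, and aNE_T was the lowest for 10 and pNE_H for 8, against 20.8%, 9.56% and 12.3% of all tested genes.

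**Figure D1:**
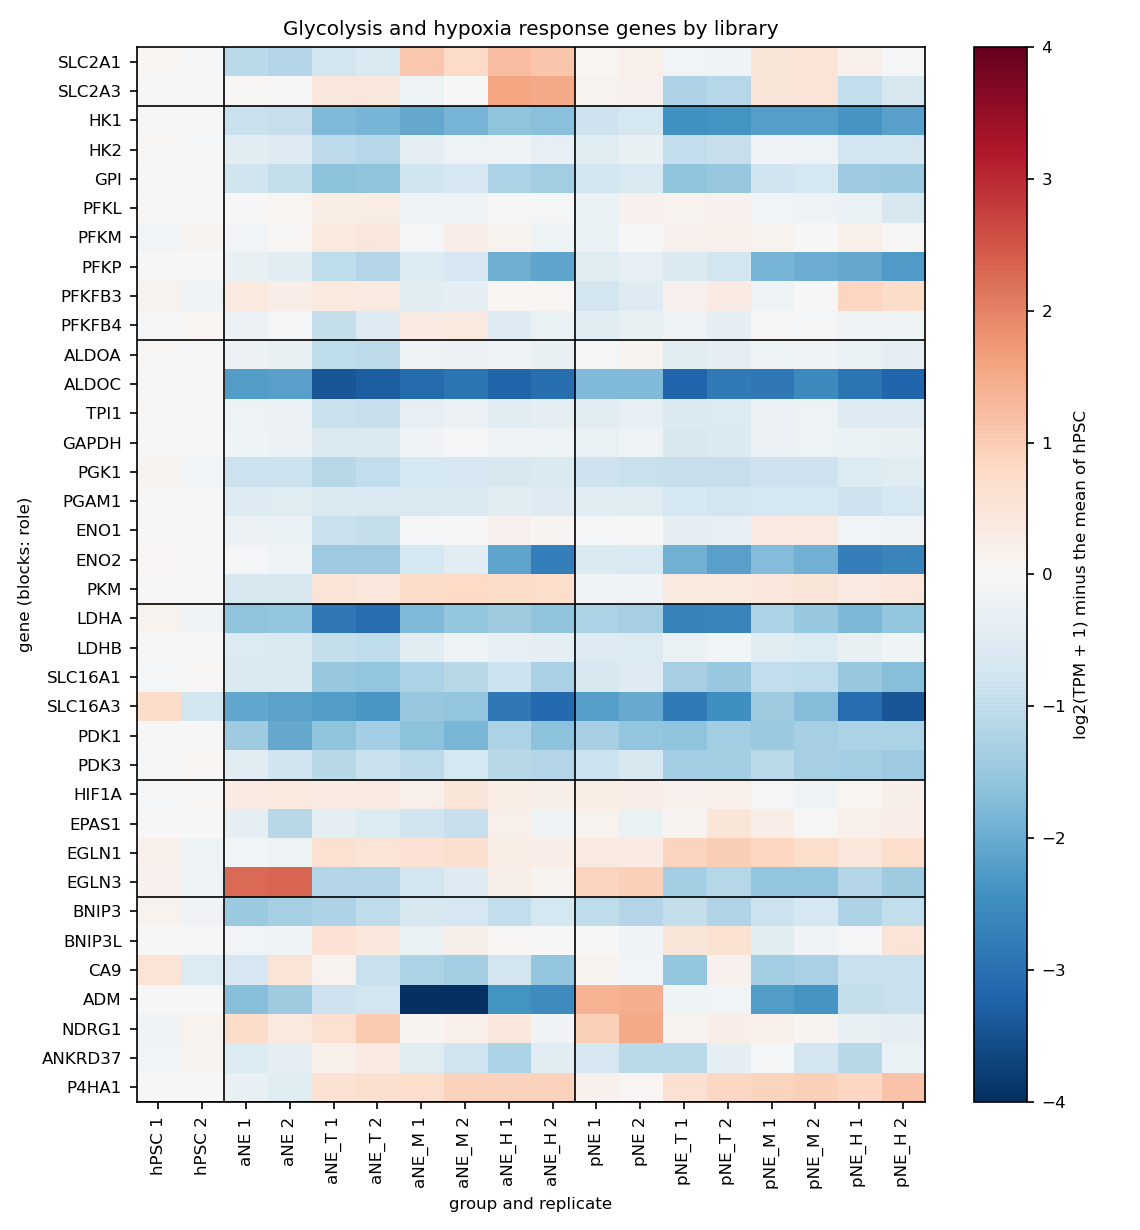
Difference of each member (rows, in blocks by role) from the mean of hPSC on the log2(TPM + 1) scale in each of 18 libraries (columns), with colours that stop at 4 in either direction. Blue prevails for HK1, ALDOC, LDHA and SLC16A3 in all groups other than hPSC, EGLN3 is red in aNE and pNE, and ADM is darkest in aNE_M.

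The glucose carriers SLC2A1 and SLC2A3, which bring glucose into the cell, had high levels that depended on both origin and medium. SLC2A1, the widespread basal carrier, was at 539.6 and 479 TPM in the hPSC libraries, 241 and 224 in aNE and 533 and 589.6 in pNE. On day 4 it was at 303 and 332 in aNE_T, 1076 and 864 in aNE_M, 1187 and 1097 in aNE_H, 475 and 456 in pNE_T, 708 and 747 in pNE_M and 583 and 480.4 in pNE_H. The aNE_M and aNE_H libraries were above all others, and the aNE libraries were the lowest. SLC2A3, the high-affinity carrier typical of neurons and of stem cells, was at 367 and 359 TPM in hPSC, 378 and 366 in aNE and 400.4 and 405 in pNE. The day 4 levels were 499 and 497 in aNE_T, 314 and 361 in aNE_M, 1080.0 and 1035 in aNE_H, 153 and 165 in pNE_T, 509 and 523 in pNE_M and 182 and 232 in pNE_H. It was highest in aNE_H and lowest in pNE_T, and the 3 groups up to day 2 lay close together. SLC2A3 made up 61.5% ± 0.652 (SD) of the summed TPM of both carriers in aNE and 26.0% ± 4.87 in aNE_M. SLC2A14, a near-identical copy, was at most 4.90 TPM in any library.

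**Figure D2:**
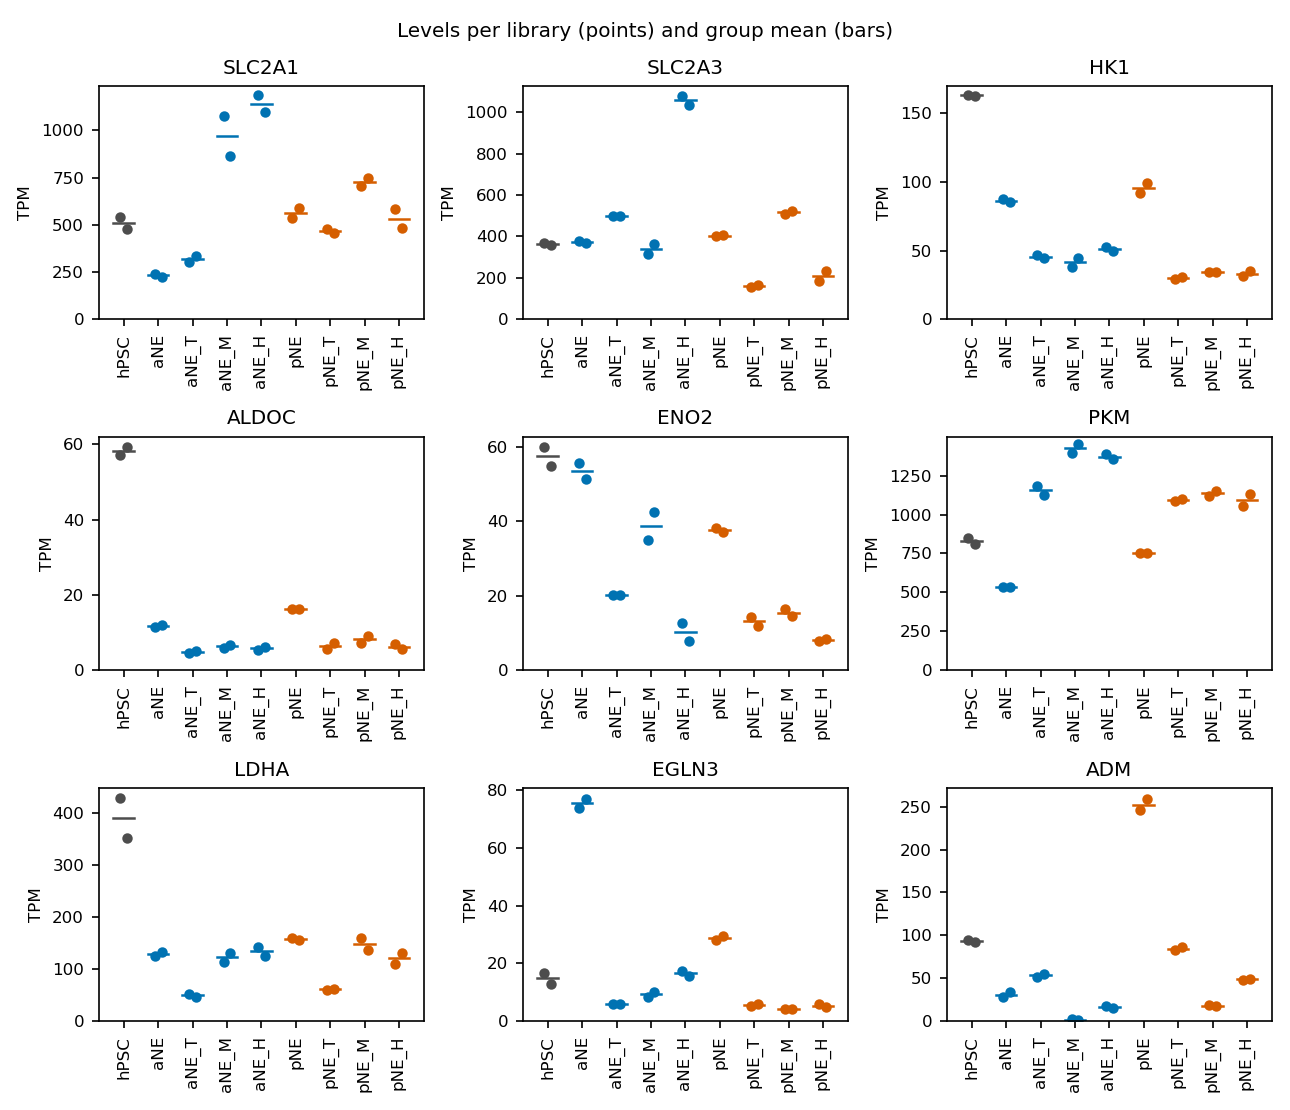
TPM of 9 members in each library (points) with the group mean (bars), for hPSC (grey), aNE-derived groups (blue) and pNE-derived groups (orange). SLC2A1 reaches 1187 TPM in aNE_H, EGLN3 peaks in aNE at 73.7 and 77.1 TPM, and ADM peaks in pNE at 246 and 259 TPM.

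In upper glycolysis, where glucose is phosphorylated and committed, HK1 and PFKP were the members that varied most. HK1, the hexokinase of most tissues, was at 163 and 163 TPM in hPSC, 87.5 and 85.4 in aNE and 92.4 and 99.5 in pNE. In the day 4 groups it was at 46.9 and 44.4 in aNE_T, 38.3 and 44.6 in aNE_M, 52.6 and 50.0 in aNE_H, 29.6 and 30.4 in pNE_T, 34.3 and 34.4 in pNE_M and 31.2 and 35.2 in pNE_H. No day 4 library reached the lowest day 2 library. HK2, the hexokinase induced by HIF in many cells, ranged from 22.7 (aNE_T) to 49.7 TPM (hPSC) over group means and was called in no comparison. HK2 made up 23.3% ± 0.670 of the summed hexokinase TPM in hPSC and 56.0% ± 0.830 in pNE_M. HK2 itself was at 49.7 ± 1.95 TPM in hPSC and 43.8 ± 1.36 in pNE_M. GPI, which turns glucose phosphate into fructose phosphate, ranged from 109 (aNE_T) to 338 TPM (hPSC) and was also never called.

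PFKP, the platelet-type phosphofructokinase, was at 105 and 108 TPM in hPSC, 86.8 and 78.2 in aNE and 76.0 and 84.6 in pNE. By day 4 it was at 51.8 and 46.9 in aNE_T, 72.3 and 67.0 in aNE_M, 26.9 and 24.1 in aNE_H, 71.0 and 63.8 in pNE_T, 28.7 and 26.0 in pNE_M and 25.1 and 21.5 in pNE_H. It was low in hindbrain medium from either origin and, in midbrain medium, low only in the pNE-derived libraries. The liver type PFKL ranged from 62.8 (pNE_H) to 106 TPM (aNE_T) and the muscle type PFKM from 70.9 (pNE) to 105 TPM (aNE_T), and neither was called. PFKP made up 39.4% ± 0.277 of the summed phosphofructokinase TPM in hPSC and 13.7% ± 0.145 in pNE_H, where PFKM made up 49.6% ± 2.24. PFKFB3 and PFKFB4 make and remove the allosteric activator of phosphofructokinase. PFKFB3 ranged from 18.7 (pNE) to 51.6 TPM (pNE_H) and PFKFB4 from 8.01 (aNE_T) to 18.2 TPM (aNE_M).

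**Figure D3:**
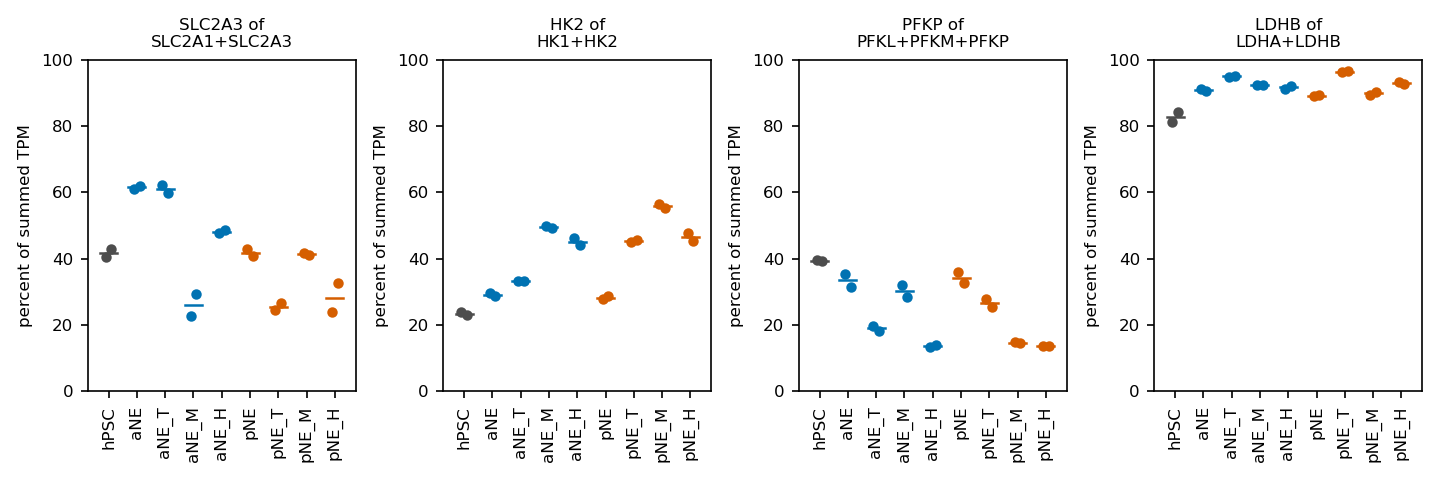
Share of SLC2A3, HK2, PFKP and LDHB in the summed TPM of the named isoforms, in percent, per library (points) with group means (bars), for hPSC (grey), aNE-derived groups (blue) and pNE-derived groups (orange). PFKP is at 13.7% in pNE_H, HK2 reaches 56.0% in pNE_M, and LDHB is above 80% in every library.

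Lower glycolysis held the most abundant member, GAPDH, and the widely ranging ALDOC and ENO2. ALDOC, the aldolase of brain, was at 57.1 and 59.2 TPM in hPSC, 11.5 and 12.1 in aNE and 16.3 and 16.3 in pNE. On day 4 it was at 4.57 and 5.07 in aNE_T, 6.0 and 6.79 in aNE_M, 5.37 and 6.24 in aNE_H, 5.54 and 7.35 in pNE_T, 7.24 and 9.11 in pNE_M and 6.82 and 5.51 in pNE_H. The hPSC libraries were far above the rest, and no day 4 library reached a day 2 library. ALDOA, the main aldolase here, ranged from 558 (aNE_T) to 1163 TPM (pNE) and was not called, so that ALDOC made up 4.85% ± 0.334 of both in hPSC and 0.593% ± 0.102 in aNE_H.

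ENO2, the enolase typical of neurons, was at 59.9 and 54.8 TPM in hPSC, 55.6 and 51.3 in aNE and 38.2 and 37.0 in pNE. The day 4 levels were 20.2 and 20.3 in aNE_T, 34.8 and 42.4 in aNE_M, 12.6 and 7.72 in aNE_H, 14.3 and 11.9 in pNE_T, 16.4 and 14.4 in pNE_M and 7.72 and 8.27 in pNE_H. Levels were lowest in hindbrain medium from either origin, and aNE_M was above every other day 4 group. The summed level of 5 neuron markers, most of it TUBB3, was 231 TPM in hPSC, 395 in aNE, 190.3 in pNE, 177 in aNE_T, 536 in aNE_M, 173 in aNE_H, 46.5 in pNE_T, 236 in pNE_M and 66.1 in pNE_H, with STMN2 at 0 in both libraries of pNE_T and of pNE_H. In aNE_H, for example, TUBB3 was at 172 TPM, and ELAVL3, ELAVL4, STMN2 and DCX were each below 1 TPM. The part of neuron-like cells in the ENO2 level was not tested. ENO1, the common enolase, ranged from 1451 (aNE_T) to 3521 TPM (pNE_M) and outnumbered ENO2 in all groups.

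PKM, pyruvate kinase of the last step, was at 848 and 813 TPM in hPSC, 533 and 535 in aNE and 754 and 756 in pNE. In the day 4 libraries it lay between 1056 and 1452 TPM, above every earlier library. ALDOC and HK1 had the opposite order, with all day 4 libraries below all day 2 libraries. The table gives 1 value per gene, so the PKM splice forms were not resolved. TPI1 ranged from 461 (aNE_T) to 866 TPM (hPSC), GAPDH from 4172 (pNE_T) to 6387 TPM (hPSC), PGK1 from 174 (aNE_T) to 360.1 TPM (hPSC) and PGAM1 from 611 (pNE_H) to 1036 TPM (hPSC). These 4 carry triose phosphates to phosphoglycerate, were highest in hPSC and passed the call in no comparison.

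Added together, the 17 core enzymes from hexokinase to lactate dehydrogenase took 1.66% ± 0.0265 (SD, n = 2) of library TPM in hPSC. The share was 1.30% ± 0.0178 in aNE and 1.38% ± 0.0428 in pNE. On day 4 it was 1.02% ± 0.0233 in aNE_T, 1.48% ± 0.0562 in aNE_M, 1.47% ± 0.0475 in aNE_H, 1.18% ± 0.0309 in pNE_T, 1.47% ± 0.0148 in pNE_M and 1.33% ± 0.00591 in pNE_H. The hPSC libraries were the highest and the aNE_T libraries the lowest, with pNE_T next above. These sums are descriptions with no test, and GAPDH, ENO1 and LDHB weigh most in them.

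**Figure D4:**
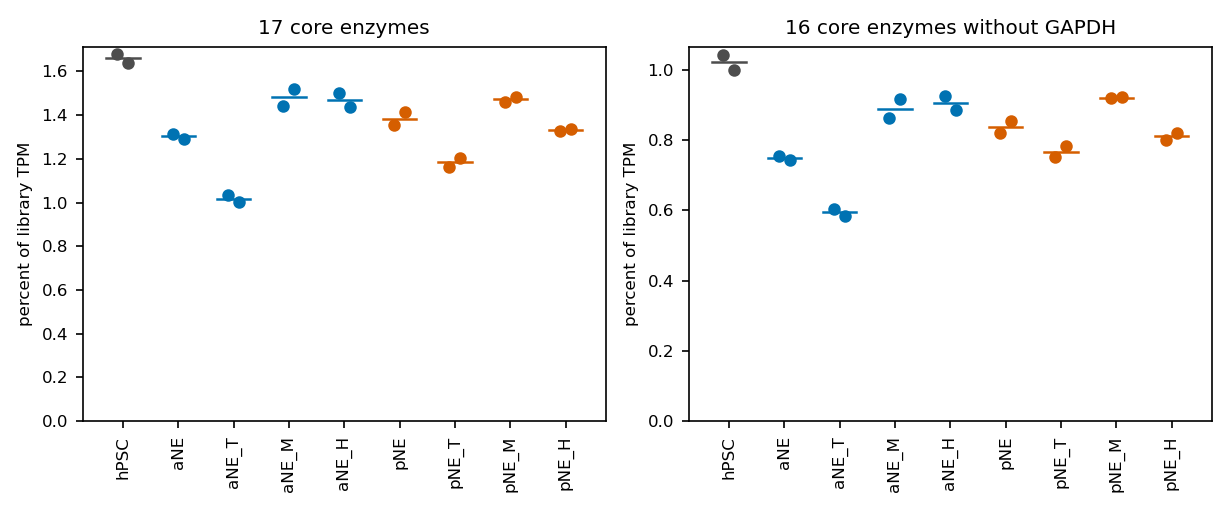
Summed TPM of 17 core glycolytic enzymes as a percent of library TPM (left), and of the 16 without GAPDH (right), per library (points) with group means (bars), for hPSC (grey), aNE-derived (blue) and pNE-derived groups (orange). The group mean is 1.66% in hPSC and 1.02% in aNE_T with all 17, and 1.02% and 0.595% without GAPDH.

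Among the genes that handle lactate and pyruvate, LDHA stood out. LDHA, the dehydrogenase subunit that favours lactate formation, was at 429 and 352 TPM in hPSC, 126 and 133 in aNE and 159.7 and 156 in pNE. In the day 4 groups it was at 52.6 and 46.2 in aNE_T, 114 and 132 in aNE_M, 143 and 126 in aNE_H, 60.1 and 62.0 in pNE_T, 159.6 and 137 in pNE_M and 110.2 and 131 in pNE_H. From either origin the forebrain medium libraries were the lowest. LDHB, the subunit that favours lactate use, ranged from 949.6 (aNE_T) to 1886 TPM (hPSC) and was never called. LDHB made up 82.9% ± 2.13 of both subunits in hPSC and 96.4% ± 0.172 in pNE_T.

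SLC16A3, the low-affinity lactate exporter, was at 32.6 and 11.0 TPM in hPSC, 3.78 and 3.60 in aNE and 3.39 and 3.97 in pNE. By day 4 it was at 3.31 and 3.0 in aNE_T, 5.98 and 5.71 in aNE_M, 1.77 and 1.35 in aNE_H, 1.85 and 2.67 in pNE_T, 6.49 and 4.98 in pNE_M and 1.45 and 0.869 in pNE_H. The hPSC replicates were far apart, yet both lay above all others. SLC16A1, the widespread monocarboxylate carrier, was the more abundant and ranged from 178 (pNE_H) to 542 TPM (hPSC). PDK1 and PDK3 are kinases that switch off pyruvate dehydrogenase and so keep pyruvate out of the mitochondrion. PDK1 ranged from 3.25 (aNE_M) to 13.1 TPM (hPSC) and PDK3 from 6.19 (pNE_H) to 18 TPM (hPSC).

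Of the oxygen sensing genes, EGLN3 had the widest range and HIF1A the narrowest. EGLN3 was at 16.8 and 12.9 TPM in hPSC, 73.7 and 77.1 in aNE and 28.2 and 29.4 in pNE. On day 4 it was at 6.0 and 6.0 in aNE_T, 8.51 and 9.96 in aNE_M, 17.3 and 15.8 in aNE_H, 5.11 and 6.06 in pNE_T, 4.26 and 4.23 in pNE_M and 5.95 and 4.84 in pNE_H. It peaked on day 2, higher in aNE than in pNE, and no day 4 library reached a day 2 library. Pseudogene rows took up to 15.9% of the summed TPM of EGLN3 and its copies. HIF1A ranged from 105 (pNE_M) to 148 TPM (aNE). HIF activity is set mainly by protein stability, which these transcript levels do not measure. EPAS1, another HIF alpha subunit, was near the detection filter, from 0.852 (aNE_M) to 3.15 TPM (pNE_T). EGLN1, the main oxygen sensor of most cells, ranged from 6.14 (aNE) to 14.0 TPM (pNE_T) and, like HIF1A, was never called.

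Of the hypoxia targets, ADM had the widest range of all 36 members. ADM encodes adrenomedullin, a secreted peptide that relaxes blood vessels. It was at 94.5 and 92.3 TPM in hPSC, 28.2 and 33.9 in aNE and 246 and 259 in pNE. The day 4 levels were 51.8 and 55.1 in aNE_T, 2.06 and 1.41 in aNE_M, 17.1 and 15.6 in aNE_H, 82.4 and 86.0 in pNE_T, 19.2 and 17.2 in pNE_M and 48.0 and 49.7 in pNE_H. In each medium the pNE-derived libraries were above the aNE-derived ones, and midbrain medium was lowest within each origin. The levels of 4 genes listed as crowding-related (CCN1, CCN2, ANKRD1 and AMOTL2) were summed, and a high sum is not read here as more or less crowding. The sum was 66.3 TPM in hPSC, 441 in aNE and 293 in pNE. The day 4 sums were 863 in aNE_T, 65.9 in aNE_M, 443 in aNE_H, 1113 in pNE_T, 208 in pNE_M and 249.6 in pNE_H. On group means, midbrain medium had the lowest day 4 sum within each origin. The libraries of pNE_M (216 and 199 TPM) and pNE_H (206 and 293 TPM) overlapped. The stress gene TRIB3 was at 4.80 TPM in aNE_M and 6.59 in pNE_M, its lowest groups, and highest in pNE. The part of crowding or stress in the ADM levels was not tested.

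NDRG1, a stress-responsive gene, was at 2.37 and 3.15 TPM in hPSC, 5.21 and 3.86 in aNE and 6.26 and 9.81 in pNE. In the day 4 groups it was at 4.71 and 6.66 in aNE_T, 3.08 and 3.28 in aNE_M, 4.11 and 2.38 in aNE_H, 3.0 and 3.50 in pNE_T, 3.30 and 3.01 in pNE_M and 2.02 and 1.91 in pNE_H. The pNE replicates were far apart. P4HA1, a collagen prolyl hydroxylase subunit, ranged from 18.5 (aNE) to 49.6 TPM (pNE_H), and all 12 day 4 libraries were above all 6 earlier ones. BNIP3 and BNIP3L are receptors for the removal of mitochondria. BNIP3 ranged from 25.9 (aNE) to 70.6 TPM (hPSC) and BNIP3L from 26.4 (pNE_M) to 47.8 TPM (pNE_T). The BNIP3 value is uncertain, because 38 pseudogene rows of the table took 20.9% to 53.0% of the summed TPM of gene and copies. With the copies added it was at 103 ± 4.96 TPM in hPSC, 52.3 ± 0.201 in aNE and 54.9 ± 1.82 in pNE. CA9, a surface carbonic anhydrase often used as a hypoxia marker, ranged from 0.164 (pNE_M) to 2.14 TPM (hPSC), and it was listed at 0 in 1 aNE_H and 1 pNE_T library. ANKRD37, a small ankyrin repeat gene, ranged from 1.79 (pNE) to 5.05 TPM (aNE_T).

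Against hPSC, which were kept in another medium without the added compounds, both ectoderm groups had lower LDHA, SLC16A3, PDK1 and ALDOC. EGLN3 was called higher in aNE and ADM in pNE. In aNE against hPSC, 1 of 36 members was called higher and 7 lower, against 7.36% and 6.19% of the 17033 genes tested. Members had a median difference of -0.42 and all genes one of 0.06. The single member called higher is a share below that of all genes. EGLN3 rose by 2.28 (SE 0.14, adjusted p = 4.26e-08). ALDOC fell by 2.21 (SE 0.15, adjusted p = 1.27e-07). SLC16A3 fell by 2.10 (SE 0.35, adjusted p = 0.000351). Its difference was -1.36 without hPSC replicate 1. PDK1 fell by 1.73 (SE 0.20, adjusted p = 2.14e-05). LDHA, ADM, BNIP3 and SLC2A1 also fell, by 1.58, 1.56, 1.40 and 1.13. With its pseudogene rows added, the BNIP3 difference was -0.97, below the size needed for a call. In pNE against hPSC, 2 of 36 members were called higher and 5 lower, against 7.14% and 5.74% of the 17033 genes tested. Over members the median difference was -0.37, and over all genes 0.05. SLC16A3 fell by 2.11 (SE 0.35, adjusted p = 0.000369). Its difference was -1.36 without hPSC replicate 1. ALDOC fell by 1.77 (SE 0.15, adjusted p = 1.02e-06). PDK1 fell by 1.45 (SE 0.20, adjusted p = 0.000101). ADM rose by 1.42 (SE 0.11, adjusted p = 7.15e-07). LDHA and BNIP3 also fell, by 1.30 and 1.10. The BNIP3 difference was -0.90 with its pseudogene rows added and -0.95 without hPSC replicate 1, both below the size needed for a call. NDRG1 rose by 1.24, and its difference without pNE replicate 2 was 0.96. Both comparisons share the hPSC libraries.

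The wider pathway was read from lists of named genes. Of 26 other hypoxia targets tested, 5 were called higher and 8 lower in aNE against hPSC, and 6 higher and 4 lower in pNE. Beside these, 7.36% of all genes tested were called higher and 6.19% lower in aNE, and 7.14% and 5.74% in pNE. AK4, a mitochondrial adenylate kinase, was at 202 ± 8.62 TPM in hPSC, 6.61 ± 0.313 in aNE and 20.9 ± 0.745 in pNE, and it fell by 4.74 in aNE and by 3.21 in pNE. PGM1, which links glycogen to glycolysis, fell by 2.39 in aNE. SLC2A12, another glucose carrier, rose by 2.16 in aNE, and IGFBP3, a binding protein of insulin-like growth factors, by 2.64 in pNE. VEGFA, the angiogenic factor, is named after its values were seen. It rose by 1.45 in aNE and 1.48 in pNE, where its level was 65.5 ± 4.48 and 66.9 ± 0.159 TPM beside 23.4 ± 2.14 in hPSC. Of 16 other isoforms tested, 1 was called higher and 3 lower in aNE, and 1 higher and 5 lower in pNE.

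Posterior and anterior ectoderm differed in few members on day 2. In pNE against aNE, 2 of 36 members were called higher and 1 lower, against 2.37% and 1.48% of the 17033 genes tested. The members and all genes had medians of 0.07 and -0.01. ADM was higher, at 2.99 (SE 0.11, adjusted p = 2.58e-09) in pNE. EGLN3 was lower, at -1.36 (SE 0.14, adjusted p = 1.78e-05). SLC2A1 was higher, at 1.27 (SE 0.11, adjusted p = 5.76e-06). ADM and EGLN3, the members with the widest ranges, went in opposite directions between these groups, which were plated at the same density. Of the 26 other hypoxia targets, 3 were called higher in pNE, among them HMOX1, a haem-degrading enzyme, at 2.23.

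On day 4 the origin difference depended on the member and the medium. In forebrain medium, 1 of 36 members was called lower and no other member was called, against 3.97% of the 17033 genes tested called lower and 3.79% called higher. Median differences were 0.04 over members and -0.05 over all genes. That member was SLC2A3, which was lower, at -1.64 (SE 0.09, adjusted p = 3.47e-08), in pNE_T. A share of 1 in 36 is near the background of this comparison. In midbrain medium, 2 of 36 members were called higher and 2 lower, against 3.19% and 2.55% of the 17033 genes tested. Members had a median difference of -0.02 and all genes one of -0.04. ADM was higher, at 2.82 (SE 0.11, adjusted p = 2.25e-09) in pNE_M. PFKP was lower, at -1.32 (SE 0.10, adjusted p = 9.48e-07). ENO2 was lower, at -1.27 (SE 0.17, adjusted p = 0.000141). EPAS1 was higher, at 1.02 (SE 0.25, adjusted p = 0.0115), and 0.95 without aNE_M replicate 2 or 0.91 without pNE_M replicate 1.

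In hindbrain medium, 1 of 36 members was called higher and 3 lower, against 3.92% and 2.91% of the 17033 genes tested. Over members the median difference was -0.12, and over all genes -0.04. SLC2A3 was lower, at -2.36 (SE 0.09, adjusted p = 1.60e-09) in pNE_H. ADM was higher, at 1.52 (SE 0.11, adjusted p = 5.89e-07). EGLN3 was lower, at -1.46 (SE 0.14, adjusted p = 4.60e-06). SLC2A1 was lower, at -1.11 (SE 0.11, adjusted p = 9.91e-06), and -0.97 without pNE_H replicate 2. ADM was the member called higher in the posterior groups in 3 of these 4 origin comparisons, and in forebrain medium its difference was 0.65. Plating density was 150000 per cm2 in all pNE-derived and 75000 in all aNE-derived day 4 groups, and its part in these differences cannot be told apart from origin.

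**Figure D5:**
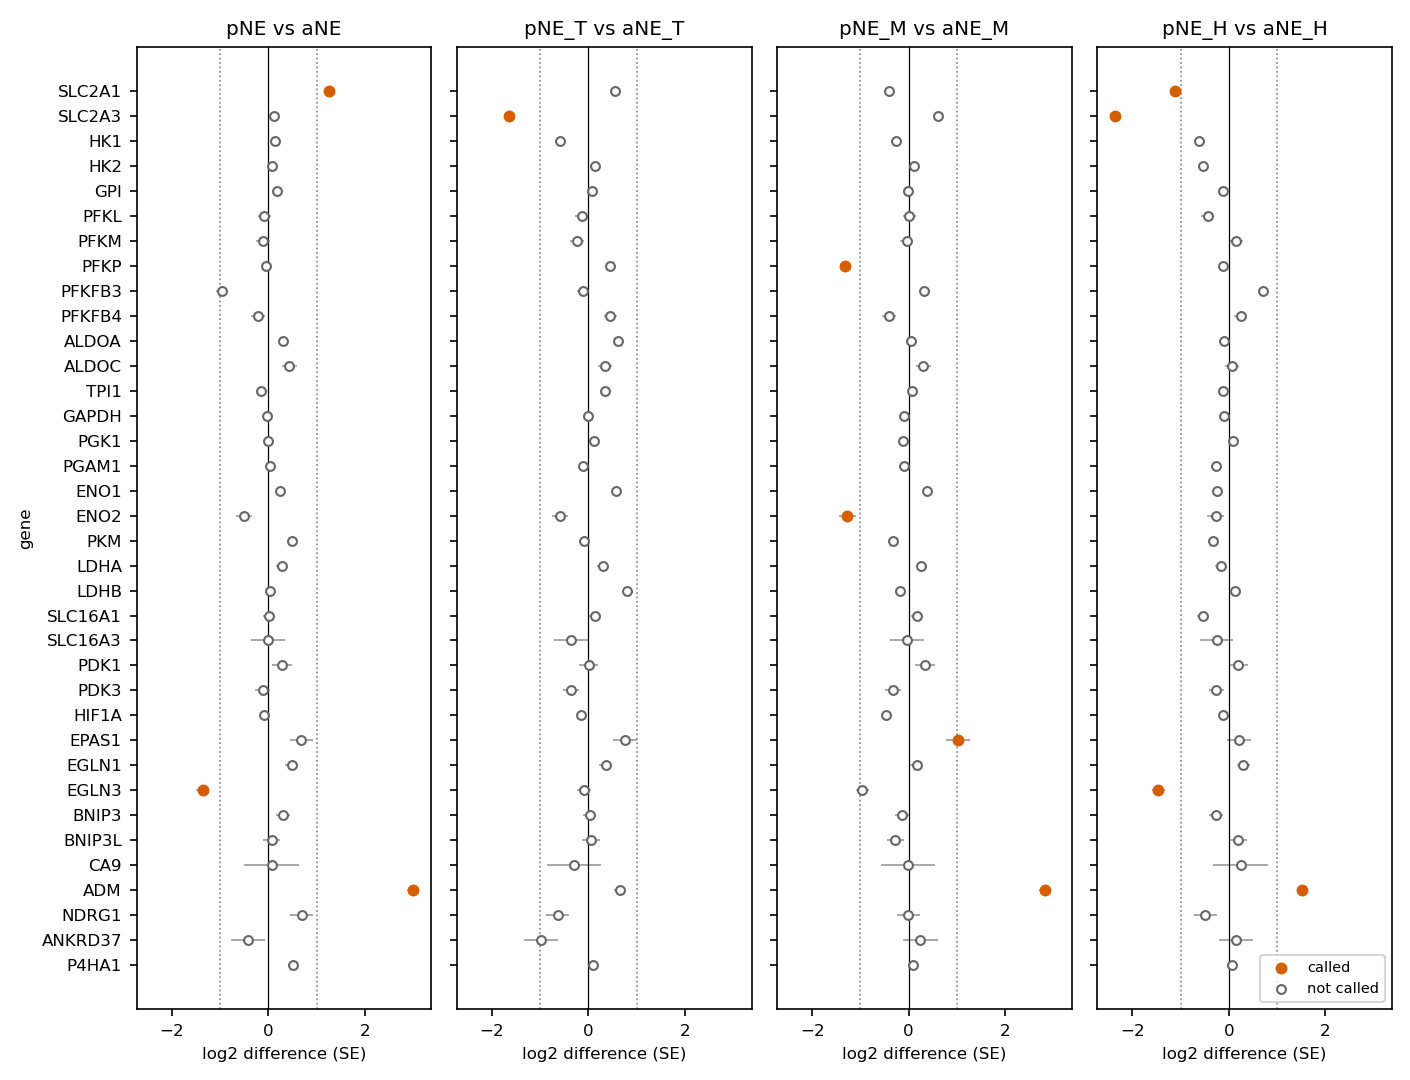
Difference of pNE-derived from aNE-derived groups on the log2(TPM + 1) scale with its SE, for 36 members (rows) on day 2 and in each day 4 medium (panels). Filled points are called, dotted lines mark a difference of 1, and ADM lies right of 0 in all 4 panels.

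Among the 26 other hypoxia targets, 5 were called higher and 3 lower in pNE_T against aNE_T, and 4 higher in pNE_M against aNE_M. In pNE_H against aNE_H, 2 were called higher and 3 lower. All genes tested were called higher in 3.79%, 3.19% and 3.92% in these comparisons, and lower in 3.97%, 2.55% and 2.91%. STC2, a secreted glycoprotein, was higher by 2.54, 2.09 and 1.98 in the posterior groups. STC1, its relative, was lower, at -2.76, in pNE_T, and AK4 was lower, at -1.85, in pNE_H. IGFBP3 was lower, at -2.07, in pNE_T and higher, at 2.04, in pNE_M. BHLHE40, a transcriptional repressor induced by hypoxia, was higher, at 2.10, in pNE_H. Of 16 other isoforms, 1 was called higher and 3 lower in pNE_T, 1 higher and 1 lower in pNE_M, and 1 higher in pNE_H.

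From aNE into the day 4 media, EGLN3 fell in all 3 media and PKM and P4HA1 rose in all 3. These comparisons share the aNE libraries. In aNE_T against aNE, 2 of 36 members were called higher and 4 lower, against 4.61% and 4.42% of the 17033 genes tested. With median-ratio scaling 1 was called higher and 4 lower. The members and all genes had medians of -0.18 and 0.00. EGLN3 fell by 3.45 (SE 0.14, adjusted p = 1.48e-09). LDHA fell by 1.37 (SE 0.12, adjusted p = 2.25e-06). ENO2 fell by 1.36 (SE 0.17, adjusted p = 4.93e-05). ALDOC fell by 1.14 (SE 0.15, adjusted p = 6.88e-05). PKM rose by 1.11 and P4HA1 by 1.01. The P4HA1 difference was 0.92 without aNE replicate 2 and 0.98 without aNE_T replicate 2, under the size needed for a call.

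In aNE_M against aNE, 3 of 36 members were called higher and 3 lower, against 4.34% and 7.63% of the 17033 genes tested. Median differences were -0.04 over members and -0.02 over all genes. ADM fell by 3.56 (SE 0.11, adjusted p = 1.16e-10). EGLN3 fell by 2.90 (SE 0.14, adjusted p = 3.27e-09). SLC2A1 rose by 2.05 (SE 0.11, adjusted p = 1.57e-08). PKM rose by 1.41 (SE 0.05, adjusted p = 2.83e-10). P4HA1 rose by 1.21. HK1 fell by 1.05, and its difference was -0.94 without aNE_M replicate 1. In aNE_H against aNE, 4 of 36 members were called higher and 3 lower, against 3.24% and 6.83% of the 17033 genes tested. Members had a median difference of -0.03 and all genes one of -0.04. ENO2 fell by 2.32 (SE 0.17, adjusted p = 3.97e-07). SLC2A1 rose by 2.29 (SE 0.11, adjusted p = 9.40e-09). EGLN3 fell by 2.12 (SE 0.14, adjusted p = 1.12e-07). PFKP fell by 1.66 (SE 0.10, adjusted p = 7.74e-08). SLC2A3, PKM and P4HA1 rose by 1.51, 1.36 and 1.30.

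Of the 26 other hypoxia targets, 4 were called higher and 2 lower in aNE_T, and 1 higher and 6 lower in aNE_M. In aNE_H, 3 were called higher and 3 lower. Shares of all genes tested were 4.61%, 4.34% and 3.24% higher in these groups, and 4.42%, 7.63% and 6.83% lower. IGFBP3 rose by 5.18 in aNE_T, from 20.0 ± 0.462 to 757 ± 17.1 TPM. VLDLR, a lipoprotein receptor, fell by 3.54 in aNE_M. Of 5 genes of the glucose and MYC response, 2 were called lower in aNE_T, 1 higher and 2 lower in aNE_M, and 1 lower in aNE_H. MYC, a transcription factor that drives many glycolytic genes, fell by 3.10 in aNE_M, and TXNIP, which restrains glucose uptake and responds to glucose metabolites, rose by 1.98. MLXIPL, the glucose-responsive factor that acts on TXNIP, fell by 1.91 in aNE_T and 1.92 in aNE_H.

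From pNE into the day 4 media, nearly all called members fell. These comparisons share the pNE libraries. In pNE_T against pNE, 8 of 36 members were called lower and no other member was called, against 5.56% of the 17033 genes tested called lower and 4.68% called higher. Over members the median difference was -0.26, and over all genes -0.03. EGLN3 fell by 2.18 (SE 0.14, adjusted p = 8.30e-08). HK1 fell by 1.64 (SE 0.08, adjusted p = 1.07e-08). ADM fell by 1.57 (SE 0.11, adjusted p = 3.40e-07). ENO2 fell by 1.45 (SE 0.17, adjusted p = 2.48e-05). LDHA, SLC2A3 and ALDOC fell by 1.36, 1.34 and 1.23. NDRG1 fell by 1.06, and its difference was -0.77 without pNE replicate 2 and -0.98 without pNE_T replicate 1. In pNE_M against pNE, 6 of 36 members were called lower and no other member was called, against 7.85% of the 17033 genes tested called lower and 4.87% called higher. The members and all genes had medians of 0.02 and -0.06. ADM fell by 3.72 (SE 0.11, adjusted p = 8.07e-11). EGLN3 fell by 2.51 (SE 0.14, adjusted p = 1.54e-08). PFKP fell by 1.52 (SE 0.10, adjusted p = 1.05e-07). HK1 fell by 1.45 (SE 0.08, adjusted p = 2.05e-08). ENO2 and NDRG1 fell by 1.24 and 1.09, and NDRG1 was at -0.81 without pNE replicate 2.

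In pNE_H against pNE, 1 of 36 members was called higher and 9 lower, against 4.47% and 7.80% of the 17033 genes tested. Median differences were -0.22 over members and -0.08 over all genes. ADM fell by 2.34 (SE 0.11, adjusted p = 7.04e-09). EGLN3 fell by 2.23 (SE 0.14, adjusted p = 5.12e-08). ENO2 fell by 2.10 (SE 0.17, adjusted p = 6.58e-07). PFKP fell by 1.74 (SE 0.10, adjusted p = 3.44e-08). NDRG1, HK1 and ALDOC fell by 1.58, 1.5 and 1.28. SLC16A3 fell by 1.12 and SLC16A1 by 1.03. Without pNE_H replicate 2 these were -0.93 and -0.94, and without pNE replicate 2 they were -1.03 and -0.98, and neither was called. The SLC16A3 call was also lost without pNE replicate 1, at -1.21. PFKFB3, which raises phosphofructokinase activity, rose by 1.42.

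Of the 26 other hypoxia targets, 3 were called higher and 4 lower in pNE_T, and 1 higher and 8 lower in pNE_M. In pNE_H, 2 were called higher and 3 lower. Shares of all genes tested were 4.68%, 4.87% and 4.47% higher in these groups, and 5.56%, 7.85% and 7.80% lower. AK4 fell by 1.87 in pNE_T and by 2.67 in pNE_H. IGFBP3 rose by 2.47 in pNE_T. PGM1 rose by 1.96 in pNE_M, to 39.9 ± 0.979 TPM. BHLHE40 rose by 1.5 in pNE_H. Of the 5 glucose and MYC response genes, 2 were called lower in pNE_T, 1 higher and 2 lower in pNE_M, and 2 lower in pNE_H. MLXIPL fell by 2.40 in pNE_T and 2.55 in pNE_H.

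Media were compared within an origin, where day and plating density were the same. From aNE, midbrain and hindbrain medium both gave higher SLC2A1 and LDHA and lower ADM than forebrain medium, and they share the aNE_T libraries. In aNE_M against aNE_T, 3 of 36 members were called higher and 1 lower, against 3.50% and 6.55% of the 17033 genes tested. Members had a median difference of 0.32 and all genes one of -0.04. ADM was lower, at -4.33 (SE 0.11, adjusted p = 1.73e-11) in aNE_M. SLC2A1 was higher, at 1.60 (SE 0.11, adjusted p = 1.82e-07). LDHA was higher, at 1.30 (SE 0.12, adjusted p = 2.60e-06). PFKFB4 was higher, at 1.10 (SE 0.14, adjusted p = 5.53e-05), and 0.89 without aNE_T replicate 1. Of 6 mesendoderm and endoderm markers, 3 were at 1 TPM or more in both aNE_M libraries, with SOX17 at 0, and their part in these differences was not tested. In aNE_H against aNE_T, 5 of 36 members were called higher and 2 lower, against 1.78% and 4.83% of the 17033 genes tested. Over members the median difference was 0.24, and over all genes -0.07. SLC2A1 was higher, at 1.84 (SE 0.11, adjusted p = 1.54e-07) in aNE_H. ADM was lower, at -1.65 (SE 0.11, adjusted p = 4.70e-07). LDHA was higher, at 1.43 (SE 0.12, adjusted p = 2.67e-06). EGLN3 was higher, at 1.32 (SE 0.14, adjusted p = 1.33e-05). SLC2A3 and ENO1 were also higher, at 1.08 and 1.06. ANKRD37 was lower, at -1.10. That call was lost without either replicate of aNE_T, at -1.17 and -1.04, and without aNE_H replicate 1, at -0.67.

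From pNE, midbrain medium gave higher LDHA and SLC2A3 and lower ADM than forebrain medium. In pNE_M against pNE_T, 3 of 36 members were called higher and 2 lower, against 3.31% and 5.29% of the 17033 genes tested. The members and all genes had medians of 0.17 and -0.03. ADM was lower, at -2.15 (SE 0.11, adjusted p = 1.57e-08) in pNE_M. SLC2A3 was higher, at 1.69 (SE 0.09, adjusted p = 2.27e-08). PFKP was lower, at -1.27 (SE 0.10, adjusted p = 8.35e-07). LDHA was higher, at 1.26 (SE 0.12, adjusted p = 4.37e-06). SLC16A3 was higher, at 1.05, a call that was lost without any 1 of the 4 libraries, with values from 0.86 without pNE_T replicate 1, 0.89 without pNE_M replicate 1 and 1.21 without pNE_M replicate 2 to 1.23 without pNE_T replicate 2. In pNE_H against pNE_T, 1 of 36 members was called lower and no other member was called, against 3.38% of the 17033 genes tested called lower and 1.65% called higher, a share near the background. Median differences were -0.02 over members and -0.04 over all genes. With median-ratio scaling 1 member was called higher and 1 lower, and without pNE_H replicate 1 there were 2 called members. PFKP was lower, at -1.49 (SE 0.10, adjusted p = 5.96e-07) in pNE_H.

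The other hypoxia targets were counted in the same 4 comparisons, in which more of all genes tested were called lower (6.55%, 4.83%, 5.29% and 3.38%) than higher (3.50%, 1.78%, 3.31% and 1.65%). Of 26, 7 were called lower in aNE_M, 3 lower in aNE_H, 1 higher and 7 lower in pNE_M, and 1 higher and 3 lower in pNE_H, each against forebrain medium of the same origin. IGFBP3 was lower in all 4, at -8.14, -5.33, -4.03 and -3.24. Of the 5 glucose and MYC response genes, 3 were called higher and 1 lower in midbrain medium from either origin. TXNIP was at 39.6 ± 2.53 TPM in aNE_M and 9.75 ± 1.21 in aNE_T, a difference of 1.92. ARRDC4, an arrestin relative with the same regulator as TXNIP, was higher, at 1.72, in pNE_M. MYCN was higher, at 2.18, in aNE_H.

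Whether pNE and aNE responded differently to a medium was tested directly, as the change from day 2 to day 4 in pNE-derived cells minus that in aNE-derived cells. For forebrain medium, 4 of 36 members were called, against 7.14% of all genes tested, with ADM at -2.34 (SE 0.16, adjusted p = 5.64e-07) and SLC2A3 at -1.76 (SE 0.13, adjusted p = 1.29e-06). For midbrain medium, 3 of 36 members were called, against 7.02% of all genes tested, a count near the background. SLC2A1 led them at -1.67 (SE 0.16, adjusted p = 9.80e-06), and it was already higher in pNE than in aNE on day 2. For hindbrain medium, 5 of 36 members were called, against 7.83% of all genes tested, led by SLC2A3 at -2.47 (SE 0.13, adjusted p = 7.03e-08) and SLC2A1 at -2.37 (SE 0.16, adjusted p = 4.88e-07). SLC2A1 rose from 233 ± 11.6 to 1142 ± 63.6 TPM in the anterior series, and was at 561 ± 39.8 and 532 ± 72.6 TPM in the posterior one. The shift from 37500 to 75000 or 150000 cells per cm2 came with the same step and cannot be told apart from the medium.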

How the data were processed

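Messenger RNA was measured in 18 libraries, 2 biological replicates in each of 9 groups. The deposited table gives TPM per gene, each library summing to 1000000, as made by the authors. Trim Galore, kallisto and the hg38 build are named, without their roles or settings, per the submitters' processing notes, and the annotation is not given in the sources used here. TPM keeps no sequencing depth, so depth is unknown, counting error could not be given and no count model was used. Values were tested as log2(TPM + 1) with limma 3.58.1 in R 4.3.3, after a filter that kept the 17033 rows reaching 1 TPM in 2 or more libraries. All groups entered a single fit with 1 mean per group, a variance trend and 9 residual degrees of freedom, and p-values were adjusted by Benjamini-Hochberg over all rows. A call needs an adjusted p below 0.05 and a difference of at least 1. There were 16 comparisons and 3 differences of differences. The fit was tested on simulated data. SD and n = 2 describe the replicates, and p-values rest on the spread between them.

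The members and lists were chosen with earlier results of these data known. Every member is named; values per library are given for members called in at least 4 comparisons or by at least 2 on the log2 scale; at most the 4 largest called changes of a comparison carry SE and adjusted p. Of the other pathway lists, the 2 largest called genes per direction and comparison may be named. Of the named hypoxia targets, MIR210HG had no row. Alternatives were another pseudocount (0.1), no filter and a filter at 5 TPM, median-ratio scaling, fits on the compared groups alone, a replicate block, the adjusted p alone, and leaving out each library. A fit with the pseudogene rows added to BNIP3 was chosen after seeing the data. Promoters are RefSeq sequences of GRCh38.p14. Some genes of the other pathway lists are not reported here.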

Additional observations from a re-analysis of the deposited data

Results flagged for a closer look

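The results below differ between the anterior and the posterior origin by a direct limma test of the difference between their day 2 to day 4 changes, on the log2(TPM + 1) scale. A negative value means a smaller rise or a larger fall in the pNE-derived cells, or a fall there beside a rise in the aNE-derived cells. SLC2A3, for example, rose in the aNE-derived and fell in the pNE-derived cells in both forebrain and hindbrain medium. Of 36 members, 4, 3 and 5 were called for forebrain, midbrain and hindbrain medium, against 7.14%, 7.02% and 7.83% of all genes tested. The count for midbrain medium is near the background. Part of a value can come from day 2, as for ADM, whose origin difference was larger on day 2 than in forebrain medium on day 4. SLC2A1 was also higher in pNE than in aNE on day 2. Among the glucose carriers, SLC2A3 was at -1.76 in forebrain medium and -2.47 in hindbrain medium, and SLC2A1 was at -1.67 in midbrain and -2.37 in hindbrain medium. In upper glycolysis, PFKP was at -1.28 in midbrain medium, and PFKFB3 was at 1.29 in midbrain and 1.68 in hindbrain medium. Among oxygen sensing genes and hypoxia targets, EGLN3 was at 1.27 in forebrain medium, and ADM was at -2.34 in forebrain and -1.47 in hindbrain medium. NDRG1 was at -1.33 in forebrain and -1.18 in hindbrain medium, and both NDRG1 calls were lost in fits on the compared groups alone. The NDRG1 call in hindbrain medium was also lost with no filter on low values. Both NDRG1 calls were also lost on leaving out any of several single libraries. Without pNE replicate 2, for example, the NDRG1 values were -1.04 and -0.89. The posterior cells were also plated at a higher density on day 4, which cannot be told apart from origin.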

How the results depend on the processing

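Of 99 calls of members, the differences of differences included, 83 were kept under all alternatives run and 16 were lost under at least 1. The lost calls were of NDRG1, SLC16A3, SLC16A1, ANKRD37, P4HA1, EPAS1, BNIP3, PFKFB4, HK1 and, in pNE_H against aNE_H, SLC2A1. No call changed direction. Dropping the size requirement and keeping the adjusted p alone raised the number of called members to 26 in aNE and 23 in pNE against hPSC, beside 41.5% and 38.4% of all genes. It gave 9 in pNE against aNE (13.6% of all genes), and 12, 11 and 12 in pNE against aNE origin in forebrain, midbrain and hindbrain medium (21.1%, 16.6% and 21.9%). From aNE into those media it gave 23, 15 and 20 (30.3%, 35.5% and 31.3%), and from pNE 23, 20 and 23 (33.6%, 35.4% and 37.2%). Midbrain and hindbrain against forebrain medium gave 22 and 19 from aNE (32.5% and 27.2%) and 17 and 10 from pNE (28.5% and 18.2%), and the differences of differences gave 12, 6 and 12 (12.3%, 13.9% and 16.1%). Median-ratio scaling gave 2 called members in place of 1 in pNE_H against pNE_T, and leaving out 1 library gave 1 to 2 there. That scaling moved the median of all genes by at most 0.08. It moved the median member difference above 0 in pNE_H against pNE_T, from -0.02 to 0.04 (24 members higher in place of 17), and in pNE_M against aNE_M, from -0.02 to 0.03, and from -0.22 to -0.12 in pNE_H against pNE. The median member difference of pNE_T against aNE_T was 0.04 with all libraries and -0.019 to 0.112 when 1 library was left out, below 0 without pNE_T replicate 2; the cause was not tested. Correlations of the replicate differences between compared groups ran from -0.09 to 0.05, so no large effect shared by replicate number was seen. Whether replicates of the same number were prepared together cannot be told from these values. The replicate block left all 19 counts as they were, for example 8 called members in aNE against hPSC. No symbol had several rows, so using the highest row of a symbol gave no other value. With TPM alone, counting error could not be given for any value.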
